A study of Rattus norvegicus with 74 samples.

Results

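The miR-26 and miR-101 families are 2 pairs of near-identical microRNAs (miRNAs): miR-26a with miR-26b, and miR-101a with miR-101b. All 4 repress EZH2, and they were followed here in the rat kidney from 2 to 104 weeks of age. They were taken by name from the scanner's output of each array, with either arm of the hairpin, wherever at least 1 array detected them. Of 8 such arms with probes, 5 were detected, among 311 miRNAs detected on at least 1 array and 677 on the array. The 4 guide strands, rno-miR-26a-5p, rno-miR-26b-5p, rno-miR-101a-3p and rno-miR-101b-3p, were detected on all 74 arrays. The opposite strand rno-miR-26b-3p was detected on 5 arrays, and rno-miR-26a-3p, rno-miR-101a-5p and rno-miR-101b-5p on 0. Kidneys came from 74 untreated F344 (Fischer) rats, an inbred strain, and every group shared this strain and the absence of treatment. The 36 females and 38 males were aged 2, 5, 6, 8, 15, 21, 78 or 104 weeks. Each array held whole-kidney RNA of 1 animal, with 4 animals in the 2-, 5-, 8- and 21-week female and the 8- and 104-week male groups and 5 in each of the other groups. A ground sample of the whole organ mixes tubules, vessels, glomeruli and blood.

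A miRNA is cut from a hairpin precursor, and 1 of its strands, the guide, is loaded into an Argonaute protein. Bases 2 to 8 of the guide, the seed, pair with sites in messenger RNAs, which are then translated less and degraded. EZH2 is the methyltransferase of Polycomb repressive complex 2, which places the repressive mark of trimethylated lysine 27 on histone H3 and is abundant in proliferating, immature cells. Levels of miR-26 and miR-101 are known to be higher in differentiated than in proliferating tissue, and both families are often reduced in tumours. EZH2 itself was not measured here.

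The mature guide strands are printed here because each pair shares its whole seed and differs only further along. They are RefSeq sequences written 5′ to 3′, with the seed (bases 2 to 8) in capitals, and positions are those of the GRCr8 assembly.
rno-miR-26a-5p: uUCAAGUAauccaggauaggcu
rno-miR-26b-5p: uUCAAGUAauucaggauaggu
rno-miR-101a-3p: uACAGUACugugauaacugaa
rno-miR-101b-3p: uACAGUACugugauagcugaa
Counted from 1 at the 5′ end, the substitutions from miR-26a to miR-26b are C11U and C21U, so that 19 of 21 aligned bases are identical, and miR-26a has 22 bases in all. From miR-101a to miR-101b the only substitution is A16G, with 20 of 21 bases identical. The miR-26a guide lies at chr8:127633063-127633084 on the plus strand, within Ctdspl. The miR-26b guide lies at chr9:83425723-83425743 on the plus strand, within Ctdsp1. Both host genes encode small phosphatases of the RNA polymerase II carboxy-terminal domain. The miR-101a guide lies at chr5:121081691-121081711 on the minus strand, within a long non-coding RNA gene, LOC120102934. The miR-101b guide lies at chr1:236273982-236274002 on the plus strand, within Rcl1, a gene of ribosomal RNA processing. Among the other detected miRNAs, rno-miR-144-3p shares 6 of the 7 seed bases with miR-101. The probe letters were not used here, so how far a probe of 1 miRNA also binds its near-identical partner was not tested.

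A level below is a normalized intensity: the scanner's background-subtracted total signal of a miRNA divided by the 75th percentile of the 311 detected miRNAs on the same array. A value of 1 therefore equals that percentile, and levels of different miRNAs are not compared, because their probes differ. An array detected 190 to 264 of the miRNAs (median 232), and its 75th percentile lay between 81.2 and 282.5 (median 156.4). No spot was saturated (0 over all arrays). The arrays lay on 10 slides, with the ages of 2 to 8 weeks on 5 of them and the later ages on the other 5, except for 1 array of a 15-week female. From 15 weeks on each group kept 1 position on its slides, apart from the 15-week female array above, so that position and group cannot be told apart there. On slide 1 the 2-week arrays lay at positions 7 and 8 and the 8-week arrays at 1 and 2, the reverse of the order on the other slides of the early ages. Tests were limma's moderated tests, with Benjamini-Hochberg adjustment across all 311 miRNAs. A contrast counts as called here where its adjusted p is below 0.05 and its fold is 1.5 or more. For age effects 2 of the ages had to differ by that fold, and for interactions of age with sex the adjusted p alone decided.

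With the scaling used, all 4 guides were lowest at 2 weeks in both sexes, in 8 of 8 age courses, but for rno-miR-26a-5p the direction in females turned under other scalings. The female means of rno-miR-26a-5p at 2 and 6 weeks were also level (log2 difference 0.033, limma, adjusted p = 0.960). How many of all 311 miRNAs were lowest at 2 weeks was not counted. An age effect was called in females for rno-miR-101a-3p, rno-miR-101b-3p and rno-miR-26b-5p, that is for 3 of the 4 guides, against 36.7% of all 311 miRNAs. The same 3 were called in males, against 45.3%. rno-miR-26a-5p had adjusted p-values of 0.0120 in females and 0.00781 in males by limma's F test, and the largest folds between its ages were 1.29 and 1.39, under the threshold. In whole tissue, a lower level of a miRNA in each cell and fewer cells that hold it cannot be told apart.

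**Figure D1:**
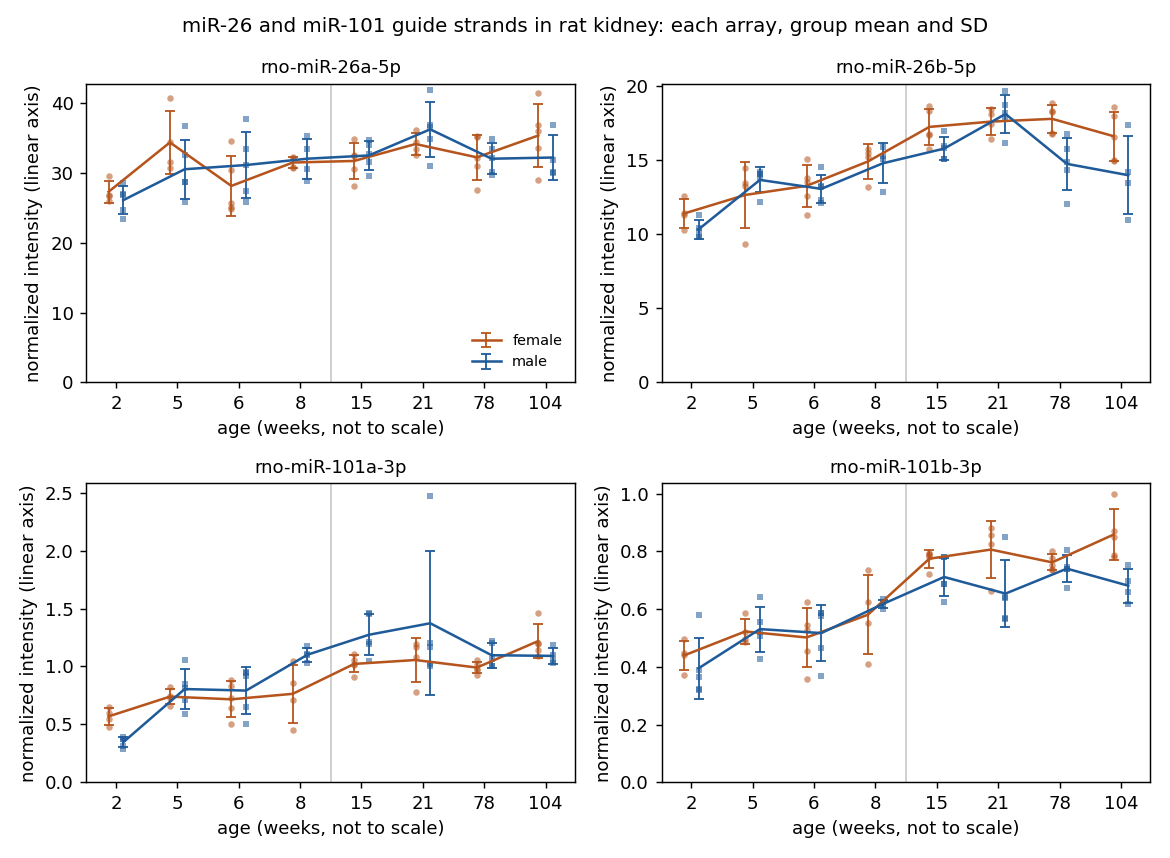
Normalized intensity (linear axis) of the 4 guide strands against age in weeks, 1 panel per miRNA, with 1 point per animal and the mean ± SD of each group of 4 or 5 arrays for females and males. With this scaling the 2-week groups have the lowest mean in every panel (for miR-26a in females the direction turns under quantile normalization), the separation of the sexes at 2 weeks is seen for miR-101a, and the grey line between 8 and 15 weeks divides the 2 sets of slides.

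rno-miR-101a-3p had the largest folds between ages of the 4. Its mean levels in males, from the youngest of the 8 ages to the oldest, were 0.346 ± 0.0432, 0.805 ± 0.173, 0.792 ± 0.206, 1.10 ± 0.0594, 1.27 ± 0.177, 1.37 ± 0.620, 1.10 ± 0.107 and 1.09 ± 0.0684 (SD, n = 4 or 5), so the low value stands at the youngest age. The 2-week males had levels of 0.286, 0.316, 0.370, 0.370 and 0.388, and the 8-week males had 1.03, 1.10, 1.11 and 1.18. These groups did not overlap, and the lowest 8-week male was above every 2-week male. The log2 level rose by 1.68 ± 0.185 (SE), a 3.20-fold change (limma, adjusted p = 8.41e-12). On slide 1, with the positions reversed, the 2-week male had 0.370 and the 8-week male 1.03, while the 2-week female had 0.479 and the 8-week female 0.448. A rise was already seen in the step from 2 to 5 weeks in males, where the 5-week levels were 0.593, 0.710, 0.817, 0.847 and 1.06. That step was 2.30-fold (adjusted p = 3.28e-08), and it was the 1 call among 56 steps between neighbouring ages of the 4 guides, against 5.21% of the 4354 steps of all miRNAs. By 21 weeks the male rise from 2 weeks was 1.91 ± 0.175 (SE) on the log2 scale, or 3.75-fold (adjusted p = 8.09e-15). The 21-week males included 1 array at 2.47, with the others at 1.004, 1.02, 1.17 and 1.20, and without that array the rise was 1.67 (adjusted p = 9.35e-14).

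In females the change of rno-miR-101a-3p from 2 weeks was called at 21 weeks but not at 8 weeks. Its mean levels at the 8 ages, in the same order, were 0.569 ± 0.0727, 0.740 ± 0.0665, 0.716 ± 0.154, 0.764 ± 0.252, 1.02 ± 0.0728, 1.06 ± 0.191, 0.991 ± 0.0485 and 1.22 ± 0.143 (SD). The 2-week females had 0.479, 0.549, 0.596 and 0.651, and the 8-week females had 0.448, 0.706, 0.855 and 1.04. The 8-week array at 0.448, from slide 1 with its reversed positions, was below all of the 2-week arrays, so the groups overlapped. The difference of 0.37 ± 0.195 (SE) on the log2 scale missed the threshold (adjusted p = 0.162, 95% interval -0.02 to 0.76). Without the array at 0.448 it was 0.60 (adjusted p = 0.0131), and without the 8-week array at 1.04 it was 0.195 (adjusted p = 0.578). The 21-week females, at 0.779, 1.08, 1.17 and 1.19, all lay above the 2-week females, a 1.84-fold rise (log2 0.88 ± 0.195 SE, adjusted p = 1.27e-04). The mean was highest at 104 weeks in females, and the fold between the lowest and highest female age was 2.15 (F test, adjusted p = 1.58e-05). In males it was 3.75, between 2 and 21 weeks (adjusted p = 1.38e-09).

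rno-miR-101b-3p also rose in both sexes. Its mean levels over the 8 ages were 0.439 ± 0.0507, 0.522 ± 0.0444, 0.502 ± 0.101, 0.581 ± 0.137, 0.775 ± 0.0309, 0.806 ± 0.0995, 0.762 ± 0.0275 and 0.858 ± 0.0882 (SD) in females. In males they were 0.395 ± 0.106, 0.531 ± 0.0778, 0.517 ± 0.0981, 0.617 ± 0.0153, 0.711 ± 0.0671, 0.654 ± 0.116, 0.740 ± 0.0463 and 0.681 ± 0.0587 (SD). The step in female levels between 8 and 15 weeks falls where the slides change. The 2-week males had levels of 0.319, 0.324, 0.363, 0.389 and 0.578, and the 8-week males had 0.599, 0.611, 0.626 and 0.633. The 8-week males were all higher, although the highest 2-week male came close to the lowest of them. Both of these arrays (0.578 and 0.599) lay on slide 1, where the positions were reversed and the females had 0.372 at 2 weeks and 0.410 at 8 weeks. The male rise from 2 to 8 weeks was 1.60-fold (log2 0.68 ± 0.139 SE, adjusted p = 3.16e-05). In females, levels of 0.372, 0.439, 0.449 and 0.495 at 2 weeks and of 0.410, 0.553, 0.623 and 0.736 at 8 weeks overlapped. The female difference of 1.30-fold had an adjusted p of 0.0395 and was under the fold threshold. From 2 to 21 weeks rno-miR-101b-3p rose 1.84-fold in females (log2 0.88 ± 0.146 SE, adjusted p = 7.90e-07) and 1.68-fold in males (0.75 ± 0.131 SE, adjusted p = 1.45e-06). The 21-week females, at 0.661, 0.825, 0.858 and 0.881, lay above the 2-week females, while the 21-week males started at 0.567, just under the highest 2-week male. The F test over all ages gave adjusted p-values of 1.32e-07 in females and 3.87e-06 in males, with folds of 1.96 and 1.92 between the lowest and highest age. The highest 2-week male was the array with the most miR-122, which is described with the other cell-type markers.

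rno-miR-26b-5p was higher at 21 than at 2 weeks in both sexes. Its mean levels over the 8 ages were 11.4 ± 0.952, 12.7 ± 2.25, 13.3 ± 1.42, 14.9 ± 1.15, 17.3 ± 1.22, 17.6 ± 0.906, 17.8 ± 0.937 and 16.6 ± 1.65 (SD) in females. In males they were 10.3 ± 0.620, 13.7 ± 0.843, 13.1 ± 0.954, 14.8 ± 1.34, 15.8 ± 0.796, 18.1 ± 1.27, 14.8 ± 1.78 and 13.98 ± 2.65 (SD). The male mean was thus highest at 21 weeks and the female mean at 78 weeks. The 2-week females had 10.3, 11.3, 11.4 and 12.6, and the 21-week females had 16.4, 17.4, 18.1 and 18.5. The 2-week males had 9.81, 9.83, 10.2, 10.4 and 11.3, and the 21-week males had 16.2, 17.9, 18.2, 18.7 and 19.6. All 21-week animals were above all 2-week animals. The rise was 1.55-fold in females (log2 0.63 ± 0.0998 SE, adjusted p = 2.50e-07) and 1.75-fold in males (0.81 ± 0.0893 SE, adjusted p = 5.74e-12). Quantile normalization gave log2 rises of 0.40 and 0.50, under the fold threshold, and the age effect of rno-miR-26b-5p was then called in neither sex. At 8 weeks the groups were also apart from 2 weeks, with females from 13.2 to 15.8 and males from 12.8 to 15.9. Those differences of 1.31-fold (adjusted p = 0.00119) and 1.43-fold (adjusted p = 5.04e-06) were under the fold threshold. After 21 weeks the male level was lower, with a 78-week mean 1.23-fold under the 21-week mean (log2 -0.30, adjusted p = 0.00767), which is also under the fold threshold. The F test over all ages gave adjusted p-values of 9.93e-07 in females and 1.99e-07 in males.

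rno-miR-26a-5p had the smallest folds between ages. Its mean levels over the 8 ages were 27.3 ± 1.56, 34.3 ± 4.53, 28.1 ± 4.27, 31.4 ± 0.806, 31.7 ± 2.53, 34.1 ± 1.55, 32.2 ± 3.24 and 35.3 ± 4.57 (SD) in females. In males they were 26.1 ± 2.00, 30.5 ± 4.23, 31.1 ± 4.73, 32.0 ± 2.88, 32.5 ± 2.03, 36.2 ± 3.896, 32.0 ± 2.19 and 32.2 ± 3.23 (SD). The female means at 2 and 6 weeks and the male mean at 2 weeks lay below the others of their sex. The 2-week females had 26.01, 26.7, 26.8 and 29.5 and the 21-week females 32.5, 33.4, 34.4 and 36.1. The 2-week males had 23.4, 24.7, 26.8, 26.9 and 28.5 and the 21-week males 31.0, 34.8, 36.6, 36.7 and 41.8. In both sexes the 21-week animals were all above the 2-week animals. The differences of 1.25-fold in females (adjusted p = 0.00862) and 1.39-fold in males (adjusted p = 1.55e-05) were under the fold threshold. The direction in females depended on the scaling, since quantile normalization gave log2 differences of -0.15 from 2 to 8 weeks and -0.13 from 2 to 21 weeks, and normexp background correction gave -0.0046 from 2 to 8 weeks. In males the 2-to-21-week difference of rno-miR-26a-5p was 0.0063 with quantile normalization (adjusted p = 0.979) and 0.080 with normexp (adjusted p = 0.481), and its age effect had adjusted p-values of 0.868 and 0.739. With slide as a fixed block the male difference was 0.67 (adjusted p = 0.00528). The differences from 2 to 8 and from 2 to 21 weeks of the other 3 guides stayed above 0 in both sexes under each alternative run.

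rno-miR-26b-3p, the strand usually discarded, was near the detection limit. Its 5 detections were single arrays: a 5-week male, a 15-week female, 21-week male replicates 1 and 5, and a 104-week female. Their raw intensities were 1.66 to 2.51, against a lowest detected signal of 1.39 for any miRNA on any array. No test was read for it, and at these intensities its level could not be told from background.

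Read over the 4 guides, 0 were called from 2 to 8 weeks in females, where 2 had an unadjusted p under 0.05 by limma, against 8.68% of all miRNAs called higher and 12.5% lower. In males 2 of 4, the miR-101 guides, were called higher, against 15.1% higher and 14.8% lower. From 2 to 21 weeks 3 of 4 were called higher in females, against 14.1% higher and 13.8% lower. The same number was called higher in males, against 22.5% higher and 17% lower. The median log2 change of the 4 guides was 0.37 in females and 0.60 in males from 2 to 8 weeks, and 0.75 and 0.78 from 2 to 21 weeks, while the median over all 311 miRNAs was 0 in each. From 15 to 104 weeks, ages that share slides, 0 of 4 were called in either sex. In that interval 2.25% of miRNAs were called higher and 3.54% lower in females, and 7.72% and 5.47% in males. An unadjusted p under 0.05 was found there for 0 guides in females and 1 in males, and the 104-week groups overlapped the 15-week groups for each guide. The 2-to-8-week and 15-to-104-week comparisons lie within a set of slides, and the 2-to-21-week comparison lies across the 2 sets. With slide as a fixed block, joined only through the 15-week female array, the 2-to-21-week change of rno-miR-101a-3p in females was 0.75 (adjusted p = 0.125) and of rno-miR-101b-3p in males 0.67 (adjusted p = 0.0556). With normexp background correction of the spot signals, which raises dim values, the changes were smaller: 0.90 from 2 to 8 and 1.08 from 2 to 21 weeks for rno-miR-101a-3p in males, both still called. From 2 to 21 weeks the log2 changes in females were then 0.53 for rno-miR-101a-3p, 0.47 for rno-miR-101b-3p and 0.34 for rno-miR-26b-5p, and in males 0.33 for rno-miR-101b-3p and 0.46 for rno-miR-26b-5p, under the fold threshold.

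**Figure D2:**
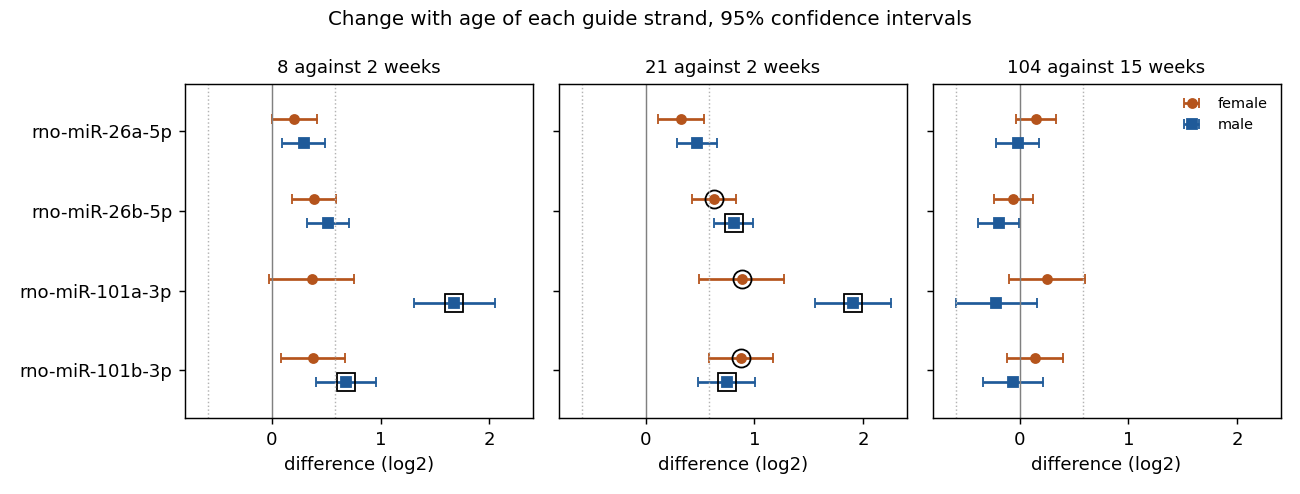
Log2 change of the 4 guide strands from 2 to 8, 2 to 21 and 15 to 104 weeks in females and males, with 95% confidence intervals; black outlines mark calls and dotted lines a 1.5-fold change. With this scaling the values of the early changes lie above 0 (for miR-26a in females they turn under quantile normalization), with rno-miR-101a-3p in males at 1.68 and 1.91, and the changes from 15 to 104 weeks scatter around 0.

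Ordering the ages of each guide by level gave few neighbours that differed. In males the 2-week level was below the next age, 6 weeks, for rno-miR-101a-3p (log2 1.16, adjusted p = 3.94e-06), rno-miR-26b-5p (0.34, adjusted p = 0.00186) and rno-miR-101b-3p (0.40, adjusted p = 0.0170). In females the only neighbours that differed were 8 and 78 weeks for rno-miR-101b-3p (0.42, adjusted p = 0.0261). These ages lie on different sets of slides, so age and slide cannot be told apart there. Other neighbours in these orders had adjusted p-values above 0.05, so the order of the later ages is not resolved.

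The sex difference that was called was in rno-miR-101a-3p. At 2 weeks the males (0.286 to 0.388) lay below the females (0.479 to 0.651) without overlap, a 1.65-fold difference (log2 -0.72 ± 0.185 SE, 95% interval -1.09 to -0.35, adjusted p = 0.00470). With normexp it was -0.34 (adjusted p = 0.0587). At 8 weeks the males were 1.51-fold higher (log2 0.59, adjusted p = 0.0788), with the highest female at 1.04 inside the range of the males. Without the 8-week female at 0.448 that difference was 0.359 (adjusted p = 0.755), and without the female at 1.04 it was 0.77 (adjusted p = 0.0210). The change from 2 to 8 weeks was 1.31 ± 0.269 (SE) larger in males on the log2 scale (limma, adjusted p = 0.000303). The same excess was 0.82 at 5 weeks (adjusted p = 0.0544), 0.85 at 6 weeks (adjusted p = 0.0251), 1.03 at 15 weeks (adjusted p = 0.00331) and 1.03 at 21 weeks (adjusted p = 0.00371). It was 0.86 at 78 weeks (adjusted p = 0.0191) and 0.56 at 104 weeks (adjusted p = 0.214). All of these excesses share the 2-week groups. The interaction of age and sex was called for rno-miR-101a-3p (F test, adjusted p = 0.00346), 1 of the 4 guides, against 27.7% of all miRNAs. It was not called for rno-miR-26b-5p (adjusted p = 0.105), rno-miR-101b-3p (adjusted p = 0.414) or rno-miR-26a-5p (adjusted p = 0.532). The 2-week difference was the 1 call among 32 comparisons of the sexes for the 4 guides, against 3.34% of the 2488 comparisons of all miRNAs and 3.86% at 2 weeks alone. Puberty in the rat falls between 2 and 8 weeks.

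For rno-miR-26b-5p the direction of the late sex differences depended on the scaling. The male mean was 1.21-fold below the female mean at 78 weeks (log2 -0.28, adjusted p = 0.0210) and 1.20-fold at 104 weeks (-0.26, adjusted p = 0.0396), both under the fold threshold. Quantile normalization gave 0.0153 at 78 and 0.0674 at 104 weeks, and without 104-week male replicate 6 the 104-week value was -0.151 (adjusted p = 0.372). For rno-miR-101b-3p the 104-week males and females did not overlap, with log2 -0.33 and an adjusted p of 0.0813.

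**Figure D3:**
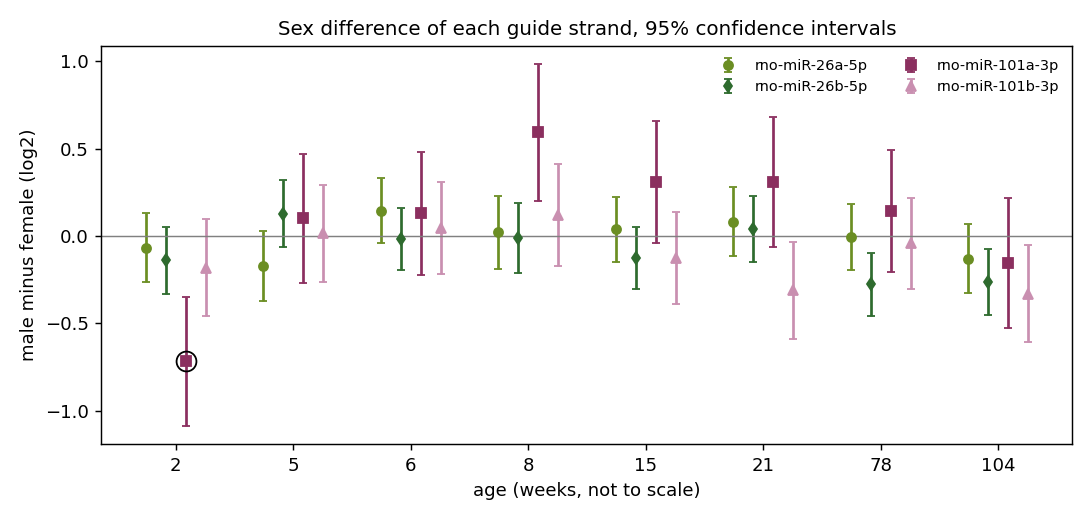
Log2 difference, male minus female, of the 4 guide strands at each of the 8 ages, with 95% confidence intervals and a circle around the called difference. The value of rno-miR-101a-3p goes from -0.72 at 2 weeks to 0.59 at 8 weeks (not called), and at 104 weeks rno-miR-101b-3p is farthest from 0, at -0.33.

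The partners of a family can be set against each other within an array, where the scaling cancels. The size of such a ratio depends on the probes, so only its change was read, and a change shows that the partners moved unequally. The log2 ratio of miR-101a to miR-101b was -0.16 ± 0.280 (SD, n = 5) in 2-week males and 0.83 ± 0.0459 (SD, n = 4) in 8-week males. The groups did not overlap, and the ratio was 2.00-fold higher at 8 weeks (exact permutation test, two-sided, p = 0.0159, the smallest it allows, and 0.0476 adjusted over 6 comparisons). At 2 weeks the ratio was 1.45-fold lower in males than in females, again without overlap (log2 -0.54, exact permutation test, p = 0.0159, adjusted 0.0476). With normexp these differences were 0.58 and -0.28. In females it differed by -0.01 on the log2 scale between 8 and 2 weeks (exact permutation test, adjusted p = 0.914). The female means stayed between 0.36 and 0.51 over all ages, while the male means after 2 weeks lay between 0.56 and 0.996. The ratio of miR-26a to miR-26b differed by -0.18 in females (adjusted p = 0.129) and -0.22 in males (adjusted p = 0.127) between 8 and 2 weeks, and by 0.07 between the sexes at 2 weeks (adjusted p = 0.533), all by exact permutation tests. Of the 2-week males, replicate 1 had a miR-101a to miR-101b ratio of -0.64 and the others -0.18 to 0.03. Without replicate 1 the male change was 0.88 and the sex difference -0.42, but with 4 arrays against 4 the adjusted p was 0.0857 for both, because an exact test of that size has a smallest p of 0.0286.

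**Figure D4:**
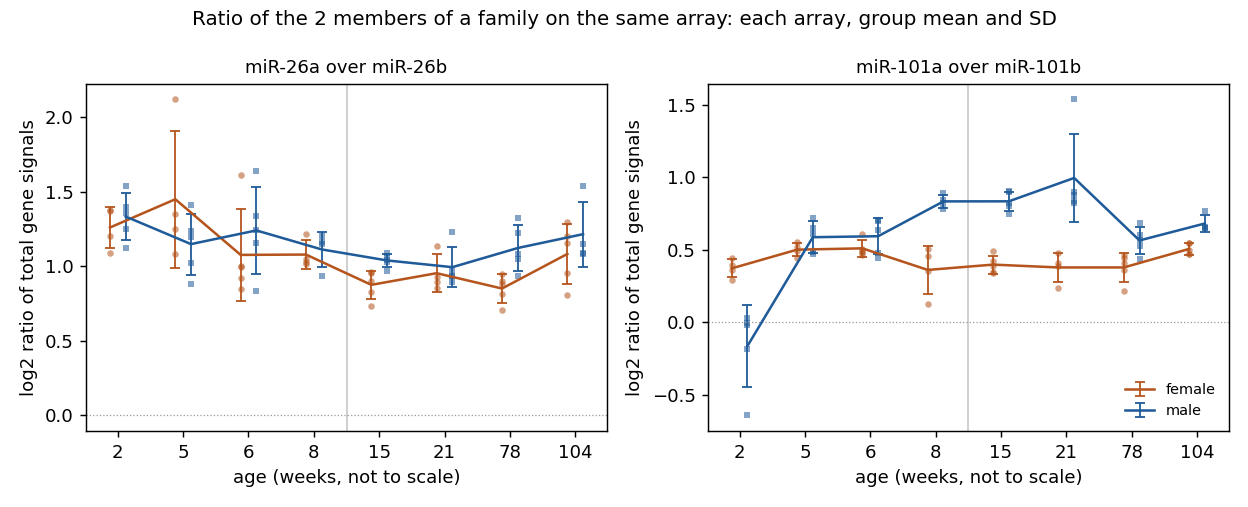
Log2 ratio of miR-26a to miR-26b and of miR-101a to miR-101b on each array against age, with the mean ± SD of each sex. The miR-101 ratio of 2-week males, with a mean of -0.16, lies below the 2-week females, and the male means at 8 and 15 weeks are 0.83.

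Each guide was read by 2 probes with 20 spots in all, and each probe was also fitted alone. The changes from 2 to 8 and from 2 to 21 weeks kept their direction with either probe of each guide. The calls were also kept, except that the first probe of rno-miR-26b-5p alone gave 0.60 from 2 to 8 weeks in males (limma, adjusted p = 1.92e-07), which passed the fold threshold. The first probe gave a median of 44.5% of the signal of rno-miR-101a-3p over the arrays (40.1% to 47.6%) and 34.1% of that of rno-miR-101b-3p (31.4% to 37.5%).

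The miRNAs whose 16 group means were most like those of each guide were sought among 162 others detected on all arrays. The Pearson coefficients are a description over group means that share arrays, scaling and ages. For rno-miR-101a-3p they were rno-miR-29c-3p (0.940), rno-miR-29b-3p (0.933) and rno-miR-29c-5p (0.931), of a family that targets collagen mRNAs. For rno-miR-101b-3p they were rno-miR-29b-3p (0.913), rno-miR-200a-3p (0.902) and rno-miR-29c-5p (0.900). For rno-miR-26b-5p they were rno-miR-200a-3p (0.946), rno-miR-192-5p (0.920) and rno-miR-186-5p (0.908), of which miR-200a marks epithelial cells and miR-192 is abundant in kidney tubules. For rno-miR-26a-5p they were rno-miR-186-5p (0.907), rno-miR-374-5p (0.906) and rno-miR-23a-3p (0.897). The sizes of change were not alike: from 2 to 21 weeks rno-miR-29b-3p had log2 changes of 3.70 in females and 4.77 in males, against 0.88 and 1.91 for rno-miR-101a-3p. Between the guides themselves the coefficients ran from 0.766 (rno-miR-26a-5p with rno-miR-101b-3p) to 0.889 (rno-miR-26b-5p with rno-miR-101b-3p), and the family partners had 0.774 (miR-26) and 0.876 (miR-101).

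Other miRNAs known as repressors of EZH2 were followed as a list of 15, of which 12 were detected on at least 1 array and 11 on all. Of the 12, 0 were called higher from 2 to 8 or from 2 to 21 weeks in either sex by limma. Of all miRNAs, 8.68% and 14.1% were called higher over these intervals in females and 15.1% and 22.5% in males. At an unadjusted p under 0.05, 2 and 1 of the list were higher in females and 3 and 4 in males. The median change of the list lay between -0.04 and 0.01 on the log2 scale. From 2 to 8 weeks 1 of the 12 was called lower in females and 3 in males, against 12.5% and 14.8% of all miRNAs, and from 2 to 21 weeks 2 in each sex, against 13.8% and 17%. rno-miR-214-3p, a miRNA of mesenchymal cells, fell by 0.71 from 2 to 8 weeks in females and by 1.23 in males, and by 1.35 and 1.55 from 2 to 21 weeks. rno-miR-25-3p, of a cluster linked with proliferation, fell by 0.85 in males from 2 to 8 weeks and by 0.68 in females and 0.85 in males from 2 to 21 weeks. rno-let-7e-5p fell by 0.59 in males from 2 to 8 weeks. In the other direction, rno-let-7b-5p was higher in males by 0.53 from 2 to 8 weeks (limma, adjusted p = 0.000386). From 2 to 21 weeks its male difference was 0.584 (adjusted p = 2.65e-05), just under the fold threshold. From 15 to 104 weeks rno-miR-214-3p rose by 0.67 in males, the 1 call of the list in that interval. Of all miRNAs, 7.72% were called higher and 5.47% lower there in males, and 2.25% and 3.54% in females. An age effect was called for 2 of the 12 in females and 4 in males, against 36.7% and 45.3% of all miRNAs. Between the sexes 0 were called at any age, against 3.34% of the comparisons of all miRNAs. At most 5 of the 12 had an unadjusted p under 0.05 there, at 78 weeks.

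Marker miRNAs of cell types moved over the same ages, and their part in the changes of the guides was not tested. Of 5 tubule miRNAs 4 were detected, on all arrays, and miR-215 on 0. From 2 to 8 weeks 1 was called higher in females and 3 in males, against 8.68% and 15.1% of all miRNAs, and from 2 to 21 weeks 2 and 3, against 14.1% and 22.5%. Their summed level in 2-week males was 20.3 to 23.3, below the 25.5 to 29.4 of the 2-week females, and in 8-week animals it was 39.6 to 41.6 in males and 31.1 to 39.5 in females. rno-miR-192-5p of this list rose by 0.72 in females and 1.37 in males from 2 to 8 weeks. The medians of the tubule sum had the order of the group means of rno-miR-101a-3p at these ages, with 2-week males lowest and 8-week males highest. The leukocyte sum had the same order, with medians of 1.76 and 2.07 in 2-week males and females and 3.09 and 3.19 in 8-week females and males. The mesenchyme and smooth muscle sum had the reverse order (25.5, 23.5, 19.1 and 18.2 in the same groups). Of 4 mesenchyme and smooth muscle miRNAs, all detected, 2 fell from 2 to 8 weeks in each sex, against 12.5% of all miRNAs in females and 14.8% in males, and at 8 weeks the summed level was 16.6 to 20.1 in females and 16.9 to 18.8 in males. At 2 weeks it had been 23.0 to 27.1 in females and 23.5 to 27.1 in males. Of 5 leukocyte miRNAs 4 were detected, of which 2 rose from 2 to 8 weeks in each sex, against 8.68% of all miRNAs in females and 15.1% in males. Their summed level went up from at most 1.86 to at least 2.59 in males and from at most 2.12 to at least 2.68 in females. The endothelial miR-126a was not called in these intervals, with log2 differences of -0.40 in females and -0.19 in males from 2 to 8 weeks. Of 3 red blood cell miRNAs 2 were detected, and miR-451 was called higher at 21 than at 2 weeks in both sexes. The share of all miRNAs called higher in that interval was 14.1% in females and 22.5% in males. Of 3 striated muscle miRNAs miR-1 and miR-133a were detected on 0 arrays, and miR-206 on 17. miR-206 was called higher in males from 2 to 21 weeks, against the same 22.5%, but close to the detection limit. All 2-week males had the floor value given to dim signals (0.0171), and the 21-week males had 0.0314 to 0.0410. The listed miR-155 and miR-486 were not analysed here.

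The liver miRNA miR-122 set 3 arrays apart, all male. Its level was 23.6 in 2-week male replicate 1, 5.82 in 6-week male replicate 1 and 3.91 in 5-week male replicate 2, and at most 0.672 on each of the other arrays. With these 3 arrays left out, 3 guides were still called for age in each sex. The change of rno-miR-101a-3p from 2 to 8 weeks in males was then 1.71 (adjusted p = 6.72e-11) and that of rno-miR-101b-3p 0.83 (adjusted p = 5.99e-07). The 2-week sex difference of rno-miR-101a-3p was -0.74 (adjusted p = 0.00638) and its interaction with age kept an adjusted p of 0.00490. The step from 2 to 5 weeks in males of rno-miR-101b-3p was then also called (0.61, adjusted p = 0.000150). Over all arrays, every 2-week male (0.397 to 23.6, median 0.519) had more miR-122 than every 2-week female (0.0774 to 0.107). That sex difference of miR-122 was called (limma, adjusted p = 0.0162). Of the 2-week males only replicate 1 was left out, so the others stayed above the females in miR-122. Whether this shift has a part in the 2-week sex difference of rno-miR-101a-3p was not tested.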

How the data were processed

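MiRNA was measured in whole-kidney RNA of 74 rats on single-colour (Cy3) Agilent rat miRNA arrays. The values the authors deposited are intensities, for which Agilent Feature Extraction 10.7.3.1 (per the file headers) subtracted the background and summarised the spots of each miRNA into a total gene signal, with 0.1 where a miRNA was not detected. The number of arrays, 4 or 5 a group, limits the precision. A second deposited table, of intensities normalized by the authors, was not used, because only 5 of its 74 columns held the array they name.

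Following the study's methods, each array was divided by its 75th percentile over 311 detected miRNAs. Values under a common floor of 0.0171, the lowest detected signal over the smallest percentile, were raised to it, and log2 was taken. Group means were fitted jointly with limma 3.58.1 in R 4.3.3 (16 groups, 58 error degrees of freedom), and age effects by F tests within each sex. Ratios were tested in SciPy 1.17.1 by exact permutation. The scripts were tested on simulated data. Each array is a separate animal. Replicate numbers were not taken as pairs: deviations from the group means of arrays with 1 number correlated at 0.0377 on average over 28 pairs.

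The members, lists and tests were chosen with earlier results of these data known. The miRNAs named were the members, the listed miRNAs and the 3 most like each guide by Pearson coefficient. Alternatives were the floor, 2 other percentiles, quantile normalization, normexp with an offset of 50, filters on dim miRNAs, slide, scan day and replicate number as blocks, no fold threshold, single probes and each array left out. Leaving out the 3 arrays of highest miR-122 was chosen after seeing the data. Sequences were matched by name to RefSeq's GRCr8 tables, for all 8 arms.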

Additional observations from a re-analysis of the deposited data

Results flagged for a closer look

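In each group of 4 or 5 arrays the highest and lowest values of the guides were compared with their neighbours by Dixon's ratio, the gap to the nearest array over the whole range. Of 64 groups examined 3 passed the 95% critical value, which is 0.829 for 4 arrays and 0.710 for 5, and chance alone passes about 1 in 20. For rno-miR-101a-3p, 21-week male replicate 2 was highest, at 2.47 against 1.20 for the next (ratio 0.803). For rno-miR-26b-5p, 5-week male replicate 2 was lowest, at 12.2 against 13.8 (ratio 0.798), and this array is 1 of the 3 with the most miR-122. For rno-miR-101b-3p, 15-week female replicate 3 was lowest, at 0.720 against 0.781 (ratio 0.840).

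The age course of rno-miR-101a-3p differed between the sexes by the interaction test (limma, adjusted p = 0.00346). Males were 1.65-fold lower at 2 weeks, which was called. At 8 weeks the male mean was 1.51-fold higher, but this was not called (limma, adjusted p = 0.0788) and the groups overlapped. Leaving out single arrays moved the 8-week log2 difference between 0.359 (adjusted p = 0.755) and 0.77 (adjusted p = 0.0210).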

How the results depend on the processing

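Of 1051 alternative values of the counts and ratios, 1009 kept their side of the threshold or stayed within 1.5 times, and none was reversed (0). Of 6548 for single guides 6497 kept their call, 20 lost it, 31 gained it and 0 called values turned sign. The counts below are of the 4 guides. With normexp, an age effect was called for 1 in females and 1 in males, and a sex difference for 0. Called higher with normexp were 0 from 2 to 21 weeks in females, and 1 from 2 to 8 weeks and 1 from 2 to 21 weeks in males. With normexp rno-miR-101a-3p kept its calls in males, and its 2-week sex difference was -0.34 (limma, adjusted p = 0.0587). Over all miRNAs normexp gave 39 age effects in females and 53 in males, against 114 and 141, and the 75th percentile over all miRNAs gave 50 interactions against 86. The cause was not tested. Quantile normalization gave 2 called steps, as did leaving out the 3 arrays of highest miR-122. The interaction was called for 2 guides with slide as a fixed block, slide as a random block and scan day as a block, where rno-miR-26b-5p joined rno-miR-101a-3p (adjusted p = 0.0451, 0.0449 and 0.0290). Sex differences were called 2 times with slide as a random block and with scan day. Slide as a fixed block gave no age effect in males, since it could not be estimated. With no fold threshold, 2 guides in females and 4 in males passed from 2 to 8 weeks, 7 steps and 3 sex differences passed.

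With each array left out in turn, the age effects stayed at 3 in each sex, interactions were 1 to 2, steps 1 to 2, sex differences 1 to 2, and calls in females 0 to 1 from 2 to 8 weeks and 2 to 3 from 2 to 21 weeks. Without 104-week male replicate 3 or 5-week female replicate 5, rno-miR-26b-5p passed for the interaction (adjusted p = 0.0189 and 0.0467). Without 2-week female replicate 5, its female change to 21 weeks was 0.58. The 8-week sex difference of rno-miR-101a-3p ran from 0.359 without 8-week female replicate 2 to 0.77 without 8-week female replicate 6, and it passed without the latter or 21-week male replicate 2 (0.59). The miR-101a to miR-101b ratio ranged from 0.878 to 1.05 for the male change and from -0.584 to -0.416 for the 2-week sex difference, with adjusted p-values of 0.0571 to 0.107. With the replicate number as a block, age effects stayed at 3 and 3 and interactions at 1, and no call of a guide changed. Changing the percentile moved the median of the 166 miRNAs detected on all arrays by up to 0.18 on the log2 scale, and normexp by -0.17.

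Depth sets no counting error here. Array number and signal over background are the limits: a signal of at most 1.39 is not told from background, which touches only rno-miR-26b-3p among the detected arms.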
